A study of Mus musculus with 94 samples.

Results

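Interferon response and antigen presentation genes were followed in the brains of mice lacking the DNA repair protein MGMT and of wild type (wt) mice after a single systemic dose of the methylating agent methylazoxymethanol (MAM). The group was given as a list of 41 genes. Each gene was read from the probe set that names it alone and has the highest mean over all arrays. A probe set of this kind was found for 39 of the 41 genes, among 18194 genes so measured on the Affymetrix mouse genome array. Isg15 was covered only by a probe set that names several genes and Ifi44 by none, and neither has a value here.

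The animals were male C57BL6 mice, 11 weeks old, either Mgmt-/- on the C57BL6 background or wt. Both genotypes received MAM in vehicle, or the vehicle alone (dilute acetic acid in saline), by intraperitoneal injection, and RNA was taken from the right side of the brain 6, 24, 48 or 168 hr later. The 16 groups of genotype, agent and time held 5 or 6 arrays each, 1 array per mouse. The work was divided between a pair of laboratories, and the animal numbers fall into 2 sets (set 1 and set 2 below) that were taken as those laboratories, with each set present in every group. Values are log2 intensities after robust multi-array averaging, so a difference of 1 is a doubling. The tissue was bulk brain, in which fewer cells of a type and less RNA per cell cannot be told apart.

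Of 94 arrays, 93 were compared. The array MGMT.MAM.168.343 of a Mgmt-/- MAM animal at 168 hr was left out because 12 liver genes had a median of 13.6 on it, against at most 6.85 on any other array, and the mean of the 39 genes was 8.39 on that array. The Mgmt probe set ranged between 5.09 and 6.45 in Mgmt-/- brain and between 5.49 and 6.21 in wt brain, and does not check the genotype labels. The mean of the neuron markers lay between 11.4 and 11.8 on the compared 168 hr arrays and that of the lymphocyte markers between 4.73 and 4.96. At 6 hr MGMT.VEH.6.903 and MGMT.VEH.6.905, named by genotype, agent, hour and animal number, stood apart from the other Mgmt-/- vehicle animals, with means of 6.86 and 6.71 for microglial markers against 7.57 to 7.77, and of 10.32 and 10.39 for oligodendrocyte markers against 10.81 to 11.01.

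Interferons are secreted proteins that alert cells to infection and damaged nucleic acid. Type I interferons act through their receptor and the Janus kinases on genes whose promoters carry the interferon-stimulated response element (ISRE), whereas genes that respond to interferon gamma often carry the gamma-activated site (GAS). Their target genes include antiviral effectors such as the IFIT, OAS and MX proteins, the cytoplasmic nucleic acid sensors RIG-I and MDA5, guanosine triphosphatases (GTPases) of the GBP and IRG families that attack intracellular pathogens, and the proteasome subunits, peptide transporter and class I molecules that present antigen. In brain, microglia, astrocytes and endothelial cells respond to interferons.

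The promoters of these genes were searched for the letters of both motifs. RefSeq promoter sequences on GRCm38.p6 were at hand for 32 of the 41 genes, and the 250 bases before each start were used. The ISRE core GAAANNGAAA, on either strand, occurred in 13 of the 32 (40.6%), against 2.98% of 32851 promoters of all genes. On the strand of the gene alone it occurred in 6 of the 32 (18.8%), against 1.53% of all promoters. The GAS core TTCNNNGAA, which reads the same on both strands, occurred in 6 of the 32 (18.8%), against 7.02% of all promoters. A match is a description of the sequence and not a measured binding site.

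The sequences of 5 GTPase and effector promoters are shown because these genes had wide ranges over the arrays or, for Igtp, passed the test described further on; capitals mark ISRE and GAS matches, and each is written 5′ to 3′ on the strand of the gene.
Gbp3 (chr3:142559969-142560043, plus strand, 2 overlapping ISRE matches): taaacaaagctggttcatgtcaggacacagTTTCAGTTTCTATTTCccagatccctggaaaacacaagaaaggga
Gbp2 (chr3:142620574-142620643, plus strand, 1 ISRE match): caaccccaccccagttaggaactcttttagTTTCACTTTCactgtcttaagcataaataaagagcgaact
Ifit1 (chr19:34640755-34640843, plus strand, 2 ISRE matches): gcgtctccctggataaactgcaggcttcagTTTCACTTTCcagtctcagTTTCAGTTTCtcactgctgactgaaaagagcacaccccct
Irgm1 (chr11:48871421-48871480, minus strand, 2 overlapping ISRE matches): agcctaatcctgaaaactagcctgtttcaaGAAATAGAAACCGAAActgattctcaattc
Igtp (chr11:58199481-58199555, plus strand, 1 GAS and 1 ISRE match): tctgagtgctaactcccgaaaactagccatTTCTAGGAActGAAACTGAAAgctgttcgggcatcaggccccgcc
In Gbp3, Gbp2 and Ifit1 the ISRE is on the opposite strand and so reads TTTC at its ends, while in Irgm1 and Igtp it is on the strand of the gene.

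The brightest of each role, by the mean over all arrays, were B2m (10.7), the invariant light chain of class I molecules; Ifi27 (8.87), a mitochondrial interferon-inducible protein; Irgm1 (7.12), a regulator of the IRG GTPases; Trim25 (6.26), a ubiquitin ligase that activates RIG-I; and Ddx58 (6.01), which encodes RIG-I itself. Mx1, an antiviral GTPase, was the dimmest at 3.44. Levels of different probe sets reflect their own affinities and are not an order of transcript abundance. The probe sets of H2-K1, H2-D1, Ifi27, Ifi35 and Trim25 are of types that may bind related transcripts.

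The mean of the 39 members on an array ranged between 5.86 and 6.59, with a pooled within-group SD of 0.0955. The highest arrays were WT.MAM.168.747 (6.59), MGMT.MAM.168.969 (6.51) and WT.MAM.168.143 (6.50). The lowest was MGMT.VEH.6.905 (5.86). MAM brains at 168 hr made up 5 of the 10 highest arrays, and also 5 of 10 when each member was centred and scaled first. The group means at 168 hr were 6.30 ± 0.13 in Mgmt-/- MAM brain (SD, n = 5), 6.19 ± 0.05 in Mgmt-/- vehicle brain (n = 6), 6.38 ± 0.16 in wt MAM brain (n = 5) and 6.21 ± 0.07 in wt vehicle brain (n = 6). The MAM groups were the more spread out, and in each genotype some MAM animals lay within the vehicle range.

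**Figure D1:**
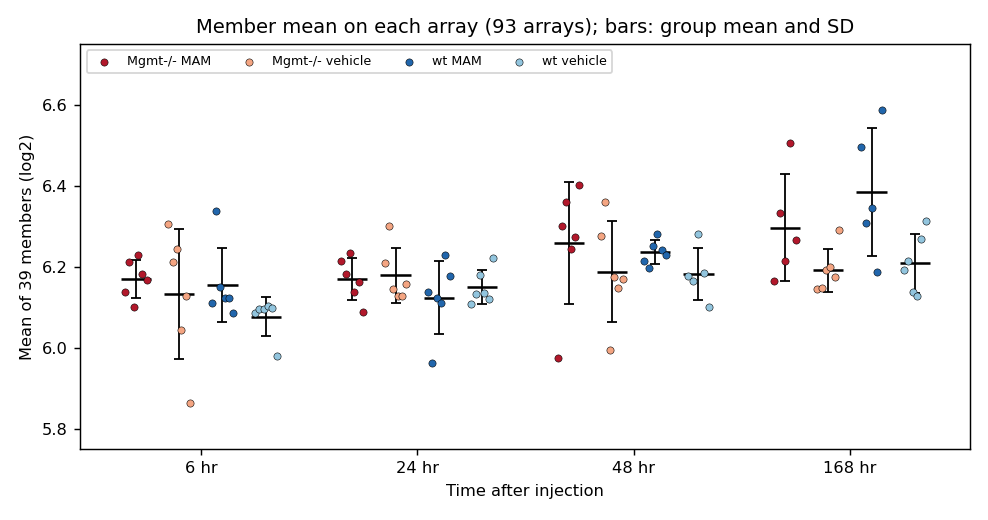
Mean log2 value of the 39 members on each of 93 arrays, by hours after injection, with points for animals and bars for the group mean and SD. The 3 highest points, 6.50 to 6.59, are MAM brains at 168 hr.

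Members deviated together only in part. Over the residuals from the group means of 93 arrays, the median correlation between 2 members was 0.16, against 0.04 between members and all other genes. The closest pairs were H2-D1 with H2-K1 (r = 0.89), both class I heavy chains whose probe sets may share transcripts, Gbp2 with Gbp3 (0.74), Trim25 with Ifih1 (0.74), the gene of MDA5, Rtp4 with Oasl2 (0.69) and Rtp4 with Iigp1 (0.69). Rtp4, an interferon-stimulated chaperone of receptors, followed the mean of the other members most closely (r = 0.80), and Irf7, a transcription factor of the type I response, had r = -0.24. These arrays share a background, a normalisation and RNA preparation, and the correlations are descriptions.

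The first question was what MAM did to these genes in each genotype at each time. Probe sets whose differences varied with the laboratory were not tested, and the threshold for a call was a limma adjusted p under 0.05 with a fold change above 1.3. Of the 39 members, 20 were tested at 6 hr, 22 at 24 hr, 35 at 48 hr and 35 at 168 hr. Igtp at 168 hr in Mgmt-/- brain was the only call by limma for MAM against vehicle in either genotype. No member was called at the earlier times or in wt brain.

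In Mgmt-/- brain the share of all probe sets called was 1.83% at 6 hr, 0.699% at 24 hr, 0.461% at 48 hr and 0.493% at 168 hr. In wt brain 0% of probe sets were called at any time. The share of members at an unadjusted p under 0.05 was below or near that of all probe sets at 6, 24 and 48 hr. In Mgmt-/- brain it was 1 of 20 at 6 hr (all probe sets 19.2%), 1 of 22 at 24 hr (11.2%), 4 of 35 at 48 hr (8.77%) and 8 of 35 at 168 hr (9.84%). In wt brain it was 0 of 20 at 6 hr (5.58%), 1 of 22 at 24 hr (7.22%), 0 of 35 at 48 hr (15.1%) and 9 of 35 at 168 hr (4.01%). All 8 members of the Mgmt-/- count at 168 hr, and all 9 of the wt count, were higher with MAM.

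At 6 hr the median MAM minus vehicle difference over the 39 members was 0.05 in Mgmt-/- brain and 0.08 in wt brain, against 0.02 and 0.04 over all genes. Without MGMT.VEH.6.903 and MGMT.VEH.6.905 the Mgmt-/- median was -0.0238, against 0.02 over all genes. At 24 hr it was -0.01 in both genotypes, against 0.02 and 0.01. At 48 hr it was 0.04 in Mgmt-/- brain and 0.08 in wt brain, against 0.01 and 0.00. At 168 hr it was 0.08 in Mgmt-/- brain and 0.14 in wt brain, while the median of all genes was -0.01 in both. At that time 25 of 39 members were higher with MAM in Mgmt-/- brain (all genes 47.7%) and 34 of 39 in wt brain (46.1%).

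**Figure D2:**
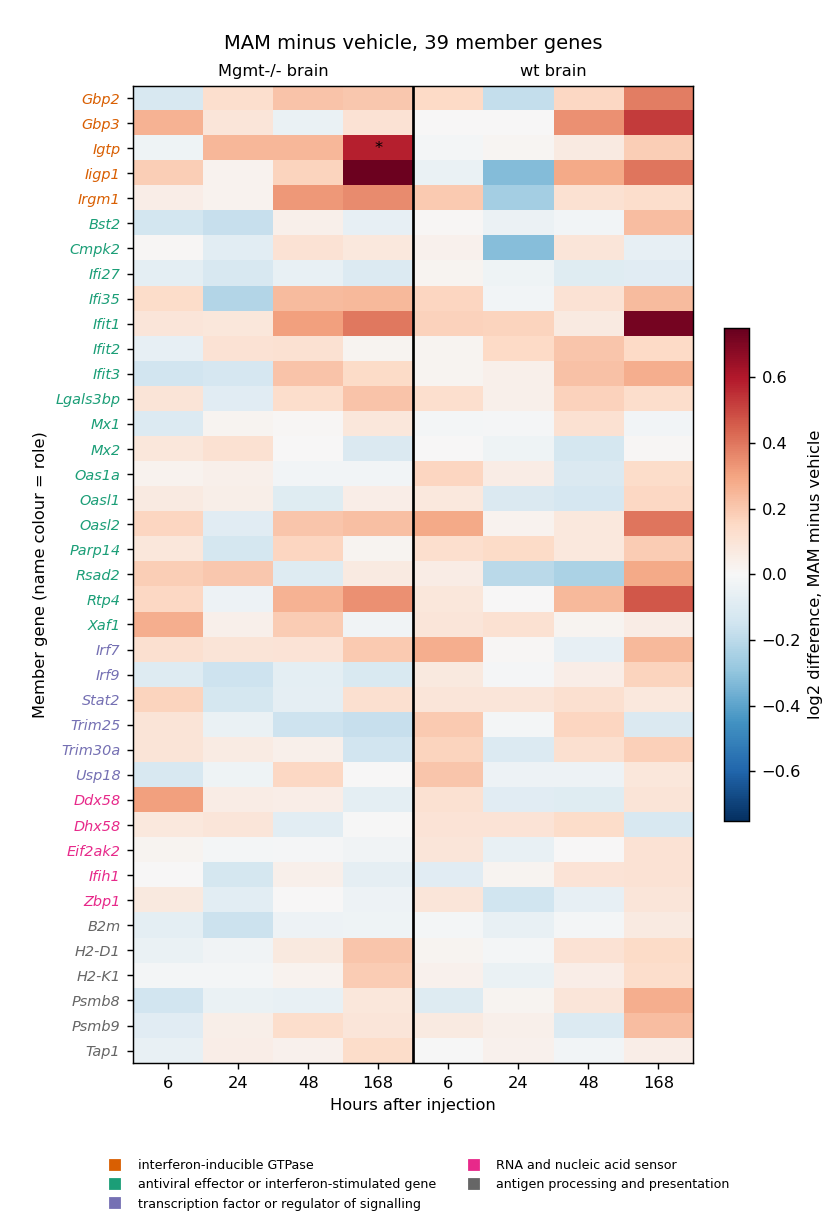
Log2 difference MAM minus vehicle for each of the 39 members (rows, name colour by role) at 6, 24, 48 and 168 hr in Mgmt-/- and wt brain. The largest differences, Iigp1 at 0.73 and Ifit1 at 0.72, are in the 168 hr columns.

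By role, the differences at 168 hr were as follows. The GTPases Gbp2, Gbp3, Irgm1, Igtp and Iigp1 were higher with MAM in 5 of 5 cases in Mgmt-/- brain and in 5 of 5 in wt brain, with medians of 0.36 and 0.38. Of the 6 genes of antigen presentation, 5 were higher in Mgmt-/- brain (median 0.12) and 6 in wt brain (0.14). Among 17 antiviral effectors, 12 were higher in Mgmt-/- brain (median 0.07) and 14 in wt brain (0.16). Of 6 regulators, 3 were higher in Mgmt-/- brain (median -0.06) and 5 in wt brain (0.12). The 5 nucleic acid sensors, Ddx58, Ifih1, Dhx58, Zbp1 and Eif2ak2, were higher in 0 of 5 cases in Mgmt-/- brain (median -0.04) and in 4 of 5 in wt brain (0.10). These counts are descriptions, since the members of a role are not independent samples.

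Igtp encodes an IRG GTPase (also called Irgm3) that takes part in defence against vacuolar pathogens. Its log2 values at 168 hr in Mgmt-/- MAM brain were 6.77, 7.32, 7.10, 7.52 and 7.56. In Mgmt-/- vehicle brain the lowest was 6.16, the median 6.68 and the highest 7.004. In wt MAM brain they were 7.07, 6.77, 6.99, 6.54 and 6.91, and in wt vehicle brain the lowest was 6.57, the median 6.66 and the highest 6.79. In Mgmt-/- brain 4 of 5 MAM animals lay above every vehicle animal and the other was within their range. Igtp rose 1.496-fold with MAM in Mgmt-/- brain, a log2 difference of 0.58 ± 0.14 (SE, limma adjusted p = 0.047), while in wt brain the difference was 0.18 ± 0.14 (adjusted p = 1.00). The 2 differences themselves differed by 0.40 ± 0.19, which was not called (adjusted p = 0.71).

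The Igtp call lay near the threshold and depended on which animals were included. Of the 11 animals in that contrast, leaving out 7 in turn lost the call and leaving out MGMT.VEH.168.319 set the probe set aside, with values between 0.51 and 0.71 and adjusted p between 0.0113 and 0.127. The call was kept without MGMT.VEH.168.321, MGMT.VEH.168.323 or MGMT.MAM.168.345. The difference was 0.38 in set 1 alone (adjusted p = 0.93) and 0.72 in set 2 alone (adjusted p = 0.011). The call was also lost with no number-set term (adjusted p = 0.058) and in the ordinary linear model (0.099), and in the fit of all 16 groups the difference was 0.59 (0.00113).

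Iigp1 (Irga6), another IRG GTPase, had the largest difference among the probe sets used. Its log2 values in Mgmt-/- MAM brain at 168 hr were 5.21, 6.26, 6.08, 6.84 and 6.51, and in Mgmt-/- vehicle brain ran from 5.24 through a median of 5.34 to 5.67. In wt MAM brain they were 6.32, 5.53, 6.03, 5.59 and 6.52, and in wt vehicle brain ran from 5.25 through 5.56 to 5.89. In Mgmt-/- brain 4 MAM animals lay above all vehicle animals and MGMT.MAM.168.345 lay below them. The MAM minus vehicle difference was 0.73 ± 0.19 in Mgmt-/- brain (SE, limma adjusted p = 0.083) and 0.40 ± 0.19 in wt brain (adjusted p = 1.00), and neither was called. A dimmer Iigp1 probe set, with a mean of 4.25 over all arrays, differed by 0.45 in Mgmt-/- brain and by 0.41 in wt brain.

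Ifit1, which binds viral RNA that lacks the host cap, had its highest group mean in wt MAM brain at 168 hr. Its log2 values were 5.56, 5.69, 5.38, 6.30 and 5.59 in Mgmt-/- MAM brain and 4.94 to 5.63 (median 5.32) in Mgmt-/- vehicle brain. They were 6.24, 5.87, 5.97, 5.42 and 6.62 in wt MAM brain and 4.95 to 5.57 (median 5.25) in wt vehicle brain. Of the 5 wt MAM animals, 4 lay above every wt vehicle animal, and in Mgmt-/- brain the groups overlapped more. The difference was 0.40 ± 0.17 in Mgmt-/- brain (limma adjusted p = 0.43) and 0.72 ± 0.17 in wt brain (unadjusted p = 0.00038, adjusted p = 0.93).

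The guanylate-binding protein Gbp3 separated the groups without overlap in wt brain and not in Mgmt-/- brain. Its log2 values in wt MAM brain at 168 hr were 6.97, 6.29, 6.46, 6.21 and 6.82, all above the wt vehicle range of 5.97 to 6.06 (median 6.03). In Mgmt-/- MAM brain they were 5.90, 6.19, 5.99, 6.66 and 5.93, of which 4 were within the Mgmt-/- vehicle range of 5.79 to 6.22 (median 6.05). The MAM minus vehicle difference was 0.11 ± 0.13 in Mgmt-/- brain (limma adjusted p = 0.85) and 0.52 ± 0.13 in wt brain (unadjusted p = 0.00061, adjusted p = 1.00). The difference between the genotypes was -0.41 ± 0.19 and was not called (limma adjusted p = 0.65), although Gbp3 was the only member below an unadjusted p of 0.05 for the interaction at 168 hr. At 48 hr every wt MAM animal (6.20 to 6.43) was again above every wt vehicle animal (5.82 to 6.14).

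Rtp4 and Oasl2, an OAS-like antiviral protein, completed the members with the largest differences. Rtp4 was 5.99, 6.18, 5.964, 6.57 and 6.04 in Mgmt-/- MAM brain, against 5.58 to 5.957 in Mgmt-/- vehicle brain, and 7.09, 5.58, 6.50, 5.85 and 6.91 in wt MAM brain, against 5.64 to 6.19 in wt vehicle brain. Its difference was 0.34 ± 0.20 in Mgmt-/- brain (limma adjusted p = 0.62) and 0.47 ± 0.20 in wt brain (1.00). A dimmer Rtp4 probe set, with a mean of 3.84 over all arrays, differed by 0.11 in Mgmt-/- brain and by 0.12 in wt brain. Oasl2 was 5.01, 5.24, 5.25, 5.70 and 5.21 in Mgmt-/- MAM brain, against 4.84 to 5.36 in Mgmt-/- vehicle brain, and 5.71, 5.30, 5.26, 5.24 and 5.80 in wt MAM brain, against 4.84 to 5.38 in wt vehicle brain. Its difference was 0.23 ± 0.14 in Mgmt-/- brain (0.63) and 0.40 ± 0.14 in wt brain (1.00). For both genes MGMT.MAM.168.969, WT.MAM.168.143 and WT.MAM.168.747 were among the highest.

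**Figure D3:**
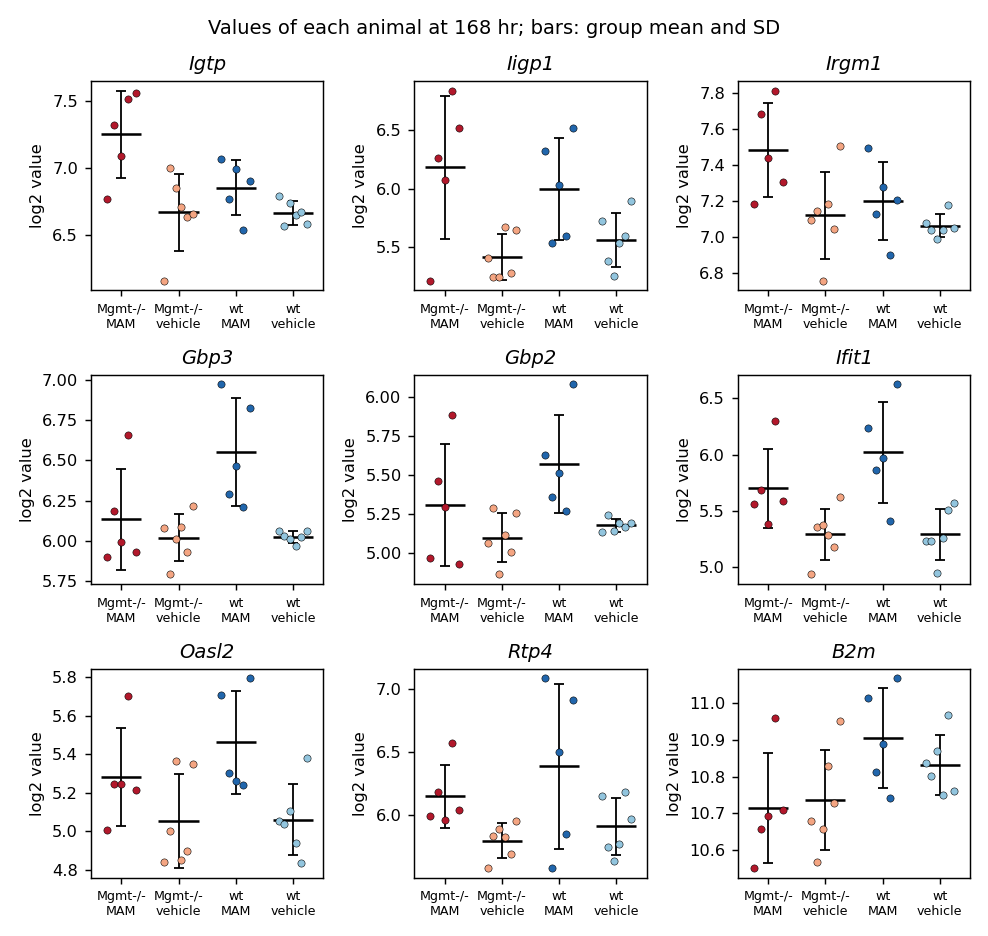
Log2 value of each animal at 168 hr for 8 members with large differences and for B2m, with bars for the group mean and SD. In wt brain every MAM value of Gbp3 (6.21 to 6.97) is above every vehicle value (5.97 to 6.06), and animals vary widely within the MAM groups.

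The full separation of animals was rare. Every MAM animal lay above every vehicle animal in Mgmt-/- brain for Xaf1, a pro-apoptotic interferon target, at 6 hr (7.33 to 7.59 against 6.93 to 7.30), where the background over all genes was 1.03%, and for Rtp4 and H2-D1 at 168 hr (0.665%). It did so in wt brain for Gbp3 at 48 hr (0.813%) and for Gbp2 and Gbp3 at 168 hr (0.0989%). No member did so in Mgmt-/- brain at 24 hr (0.467%) or 48 hr (0.176%), or in wt brain at 6 hr (0.104%) or 24 hr (0.236%). For Xaf1 at 6 hr the difference was 0.27 ± 0.09 (limma adjusted p = 0.099). No member had every MAM animal below every vehicle animal, where the background at 6, 24, 48 and 168 hr was 1.22%, 0.852%, 0.247% and 0.879% of all genes in Mgmt-/- brain and 0.011%, 0.0824%, 2.23% and 0.148% in wt brain.

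The difference between the genotypes in the response to MAM was tested as an interaction. No member was called by limma at 6 hr (0.13% of all probe sets called), 24 hr (0.0509%), 48 hr (0.9%) or 168 hr (0.0718%), and 0, 2, 0 and 1 members were at an unadjusted p under 0.05, against 9.78%, 5.95%, 16.7% and 7.1% of all probe sets. These are 0 of 20, 2 of 22, 0 of 35 and 1 of 35 members tested. The 2 at 24 hr were Rsad2 (0.41 ± 0.19) and Parp14 (-0.28 ± 0.13). At 168 hr the largest were Gbp3 (-0.41) and Igtp (0.40). A lack of a call does not show that the genotypes responded alike.

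**Figure D4:**
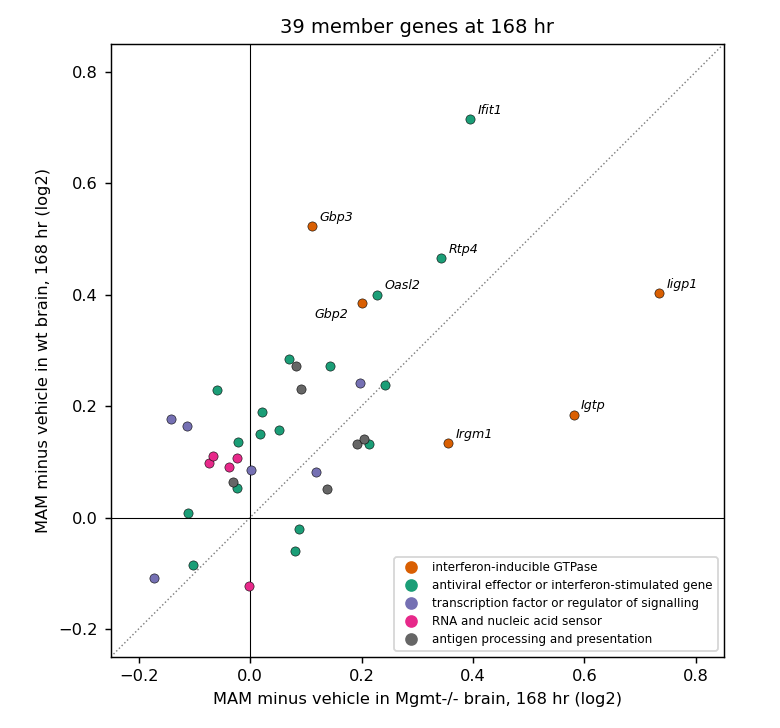
MAM minus vehicle log2 difference of the 39 members at 168 hr, in Mgmt-/- brain (horizontal axis) and wt brain (vertical axis), coloured by role. Iigp1 and Igtp lie furthest right, Ifit1 and Gbp3 highest, and 34 members lie above 0 on the wt axis.

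An average of the MAM minus vehicle difference over both genotypes, added after the data were seen, uses all animals of a time point. At 168 hr 15 of 35 members had an unadjusted p under 0.05, all higher with MAM, against 7.16% of all probe sets, and 35 of 39 were higher. No member was called by limma, where 0.0593% of all probe sets were. The smallest adjusted p were 0.0886 for Ifit1 (0.56 ± 0.12) and 0.16 for Iigp1 (0.57 ± 0.14). At 6, 24 and 48 hr, where 0.276%, 0.472% and 0.00281% of all probe sets were called, no member was called by limma, and 3 of 20, 0 of 22 and 5 of 35 members had an unadjusted p under 0.05, against 17%, 12.3% and 7.06% of all probe sets.

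Ifi35, an interferon-induced leucine zipper protein, was the only member called between the genotypes. In vehicle brain at 24 hr its log2 values in Mgmt-/- animals ran from 6.37 through a median of 6.73 to 6.90, against 6.04, 6.39 and 6.47 in wt animals. Of 6 Mgmt-/- animals, 5 lay above every wt animal, and MGMT.VEH.24.907 lay within the wt range. The means were 6.70 ± 0.19 in Mgmt-/- and 6.32 ± 0.17 in wt (SD, n = 6 each), and Ifi35 was 1.303-fold higher in Mgmt-/- brain (0.38 ± 0.12, SE, limma adjusted p = 0.048). The call was kept only when MGMT.VEH.24.907 was left out and was lost in the other 11 of 12 cases, with values between 0.33 and 0.44 and adjusted p between 0.0206 and 0.115. With an index of RNA quality (the mean log2 difference between the 3 prime and 5 prime control probe sets of Gapdh and Actb) as a covariate the difference was 0.29 (adjusted p = 0.41). A higher index means less 5 prime than 3 prime signal, which is the direction of poorer RNA. The index lay between 0.43 and 0.53 in Mgmt-/- vehicle brain at 24 hr and between 0.27 and 0.37 in wt vehicle brain, without overlap. Another Ifi35 probe set differed by 0.11 and a further one by -0.01.

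No other member was called between genotypes by limma. In vehicle brain 3.57% of all probe sets were called at 6 hr, 4.21% at 24 hr, 3.01% at 48 hr and 0.0874% at 168 hr, and 3 of 20, 3 of 22, 5 of 35 and 1 of 35 members had an unadjusted p under 0.05, against 21.8%, 24.1%, 17.3% and 10.1% of all probe sets. In MAM brain 7.29%, 5.28%, 9.33% and 1.52% of all probe sets were called at these times, and 2, 2, 3 and 9 members had an unadjusted p under 0.05, against 27.5%, 24.7%, 35.9% and 16.9% of all probe sets. Xaf1 in MAM brain at 48 hr had an adjusted p of 0.0485 and a difference of 0.24, below the fold threshold. At 168 hr in MAM brain 6 of the 9 members, among them Gbp3 (-0.42), Rsad2 (-0.40), Trim30a (-0.37) and Bst2 (-0.35), were lower in Mgmt-/- than in wt, and Igtp (0.40), Irgm1 (0.28) and Lgals3bp (0.22) were higher. Cmpk2, a mitochondrial nucleotide kinase that was set aside for its laboratory interaction, differed by -0.45 in vehicle brain at 24 hr.

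The levels in vehicle brain were compared over time in a single fit of all 16 groups. No member was called by limma in Mgmt-/- vehicle brain (0% of probe sets at 24, 48 or 168 hr against 6 hr), where 1, 6 and 4 of the 39 members had an unadjusted p under 0.05, against 3.79%, 7.54% and 9.51% of all probe sets. None was called in wt vehicle brain, where 0.00222%, 0.00887% and 0.142% of probe sets were called and 2, 6 and 10 of the 39 members had an unadjusted p under 0.05, against 1.85%, 8.35% and 9.32% of all probe sets. The median of the 39 members was 0.07 higher at 168 hr than at 6 hr in Mgmt-/- vehicle brain and 0.12 higher in wt vehicle brain, against 0.02 and 0.03 over all genes. Without MGMT.VEH.6.903 and MGMT.VEH.6.905, left out after the data were seen, the Mgmt-/- median was -0.0221 and no member was called (0.00222% of all probe sets). In set 2 alone, which holds both of these arrays, 11 of 39 members (28.2%) were called between 168 and 6 hr in Mgmt-/- vehicle brain, beside 24.4% of all probe sets. In set 1 alone no member was called, beside 0.02% of all probe sets, and the difference between the sets was not tested.

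**Figure D5:**
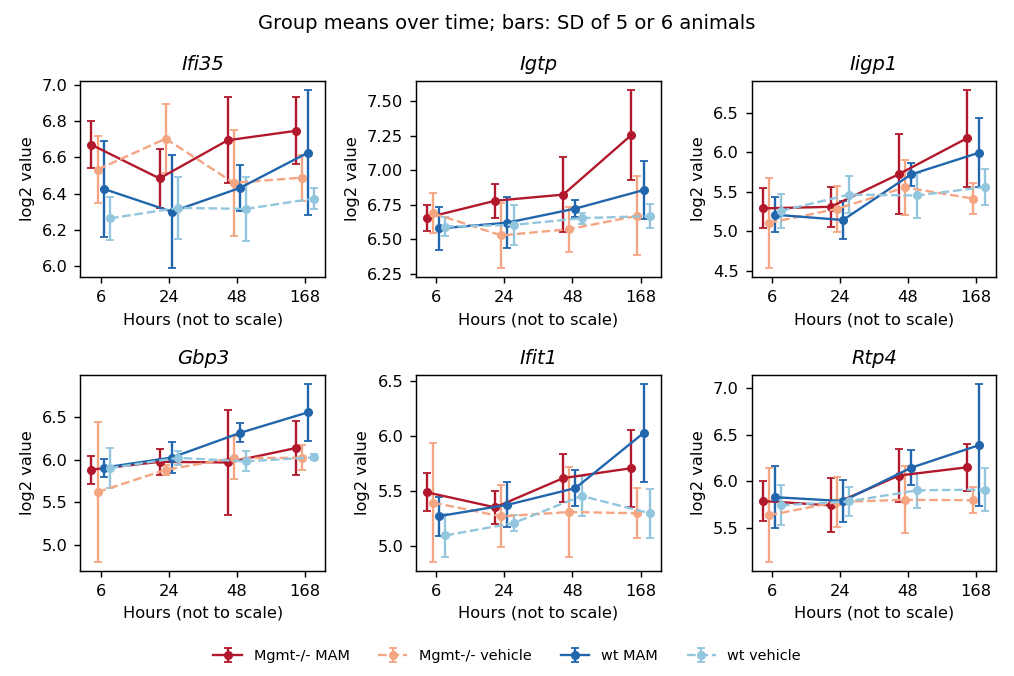
Group means over time for members with the largest differences, with bars for the SD of 5 or 6 animals, for Mgmt-/- and wt brain given MAM or vehicle. Igtp in Mgmt-/- MAM brain stands at 7.25 at 168 hr, against 6.67 in Mgmt-/- vehicle brain, and the other curves lie between 6.53 and 6.86.

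Genes around the members were read from fixed lists. In MAM against vehicle at 168 hr in Mgmt-/- brain, 1 of 33 tested other interferon-stimulated genes was called, Irgm2, a further IRG GTPase (0.61 ± 0.14, limma adjusted p = 0.044). In wt brain its difference was 0.36 ± 0.14 (adjusted p = 1.00). Over the 41 measured genes of that list 27 were higher in Mgmt-/- brain and 27 in wt brain, with medians of 0.04 and 0.06. None of the 19 tested interferon, receptor and signalling genes was called, and their median was -0.02 in Mgmt-/- brain and 0.01 in wt brain. The interferon genes on the array stayed dim, with Ifnb1 at a mean of 4.53 and Ifng at 3.64. The mean of 17 other antigen genes at 168 hr ranged between 7.12 and 7.35 in Mgmt-/- MAM brain (median 7.198). In Mgmt-/- vehicle brain it ranged between 7.34 and 7.39 (median 7.37). This is the side opposite to the antigen presentation members, of which 5 of 6 were higher. In wt brain it ranged between 7.26 and 7.44 with MAM and between 7.29 and 7.46 with vehicle. The list mean was not tested. Of its genes, the class II chain H2-Aa had a difference of -0.57 ± 0.17 in Mgmt-/- brain (limma adjusted p = 0.14).

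Genes of these lists were also called between genotypes, and how many of each list were tested or called is not given here. Of all probe sets, 3.57% were called in vehicle brain at 6 hr and 3.01% at 48 hr. In MAM brain 7.29% were called at 6 hr, 5.28% at 24 hr and 9.33% at 48 hr. Vehicle brain at 6 hr includes MGMT.VEH.6.903 and MGMT.VEH.6.905. The index of RNA quality with MAM was 0.63 in Mgmt-/- and 0.38 in wt brain at 6 hr. It was 0.63 and 0.39 at 24 hr and 0.54 and 0.33 at 48 hr. In vehicle brain it was 0.43 and 0.31 at 6 hr and 0.42 and 0.33 at 48 hr. The values below were not adjusted for this index. Ifngr2, a chain of the interferon gamma receptor, fell by 0.89 in vehicle brain at 6 hr (limma adjusted p = 1.79e-04) and by 1.26 in MAM brain at 6 hr (6.56e-07) in Mgmt-/- relative to wt, and at 48 hr by 0.56 and 0.93. Jak1, a Janus kinase, was 0.49 higher in Mgmt-/- vehicle brain at 48 hr (0.00327). Ifitm2, a membrane protein that blocks viral entry, fell by 0.39 at 6 hr, by 0.40 at 24 hr and by 0.38 at 48 hr in MAM brain of Mgmt-/- relative to wt. Pdia3, which helps load class I molecules, fell by 0.57 in vehicle brain and by 1.01 in MAM brain at 48 hr in Mgmt-/- relative to wt. Erap1, which trims peptides for class I molecules, fell by 0.50 in MAM brain at 24 hr, and Oas2, an antiviral sensor of double-stranded RNA, was 0.38 higher in MAM brain at 48 hr in Mgmt-/- than in wt.

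Over the 93 arrays the mean of the members correlated, within groups, with the mean of the other interferon-stimulated genes (r = 0.74) and of other antigen genes (0.67). Likewise r was 0.63 for 9 endothelial, 0.47 for 9 microglial, 0.44 for oligodendrocyte, 0.34 for choroid plexus and 0.29 for astrocyte markers. For neuron and lymphocyte markers r was -0.02 and -0.07. For the interferon, receptor and signalling genes r was 0.28 (Spearman 0.11). The Spearman correlation was 0.66 for other interferon-stimulated genes and 0.57 for other antigen genes. It was 0.51 for endothelial, 0.36 for microglial and 0.36 for oligodendrocyte markers, below r in each case. The endothelial list at 168 hr ranged between 7.11 and 7.28 in Mgmt-/- MAM brain and between 7.21 and 7.35 in Mgmt-/- vehicle brain. In wt brain it ranged between 7.22 and 7.54 with MAM and between 7.22 and 7.42 with vehicle. At 168 hr the microglial list ranged between 7.25 and 7.47 in Mgmt-/- MAM brain and between 7.50 and 7.74 in Mgmt-/- vehicle brain, the side opposite to the members, and between 7.52 and 8.13 in wt MAM brain and between 7.51 and 8.12 in wt vehicle brain. The mean of the 9 measured blood monocyte and neutrophil markers ranged up to 5.89 in Mgmt-/- MAM brain and 5.40 in Mgmt-/- vehicle brain. In wt brain it ranged up to 6.88 with MAM and 5.54 with vehicle. Its median over the arrays was 5.25 with MAM and 5.27 with vehicle in Mgmt-/- brain, and 5.65 and 5.36 in wt brain. Over the genes of the list the median differences were 0.11 in Mgmt-/- and 0.35 in wt brain. The 6.88 was on WT.MAM.168.747, the array with the highest mean of the members, and this list correlated with the member mean within groups with r = 0.32. The part of these cell types in the member values was not tested. The index of RNA quality is higher for poorer RNA. In Mgmt-/- brain it was higher with MAM than with vehicle at 6 hr (0.63 against 0.43), 24 hr (0.63 against 0.48) and 48 hr (0.54 against 0.42). At 168 hr it was close (0.52 against 0.55). In wt brain it was 0.44 with MAM and 0.37 with vehicle at 168 hr. With this index as a covariate the Igtp difference was 0.61 (limma adjusted p = 0.036).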

How the data were processed

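Total RNA of mouse brain was hybridised to Affymetrix arrays by the authors, who deposited log2 values made with RMA in the affy package (background correction, quantile normalisation, median polish). No version of these tools was found. All 94 per-sample columns were mapped to the labels by their titles, and 0 were left unused. Probe set names came from the platform annotation. The members and gene lists were chosen with earlier results of these data known.

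The arrays of a time point, in 4 groups, were fitted with a number-set term in R 4.3.3 (limma 3.58.1). Probe sets with a joint p of 0.15 or less for 3 number-set interactions in an ordinary linear model were set aside, leaving 17732, 21614, 35550 and 32025 at 6, 24, 48 and 168 hr. P-values were adjusted over these by Benjamini-Hochberg, and genes were called at an adjusted p under 0.05 and a fold above 1.3. The number of arrays limits the precision. Times were compared in 1 fit of the 16 groups without this filter. Described more closely were the members called, the 6 with the widest group means and the 6 with the largest MAM minus vehicle differences. For these, values are given for single animals or as group ranges. For the brightest of each role the mean over all arrays is given. Separation of animals, motif counts (Python 3.11.15) and correlations carry no test. The code was tested on simulated data, and matplotlib 3.10.9 drew the figures. Alternatives changed the laboratory term and filter, test, fold threshold, normalisation, array weights, RNA index, samples and probe set choice, and each animal was left out in turn.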

Additional observations from a re-analysis of the deposited data

Results flagged for a closer look

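In 13 of 208 groups tested for the named members and the member mean, 1 array stood apart from the others, where chance alone gives about 1 in 20; arrays are named by genotype, agent, hour and animal number. For the mean of the 39 members these were MGMT.MAM.48.337 (5.97, lowest of 6), WT.MAM.6.127 (6.34, highest of 6) and WT.VEH.6.705 (5.98, lowest of 6). Gbp3 had MGMT.MAM.24.335 high (6.27), MGMT.MAM.48.337 low (4.73) and WT.MAM.6.729 high (6.11). Ifi35 was low in WT.MAM.6.727 (5.91) and in WT.MAM.24.133 (5.68). Ifi27 was low in WT.MAM.24.133 (8.14) and in MGMT.VEH.48.317 (8.46). B2m was low in MGMT.VEH.6.905 (10.4), Igtp was high in WT.MAM.6.127 (6.89), and Rtp4 was low in WT.VEH.48.717 (5.57, lowest of 5).

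The array MGMT.MAM.168.343, which no comparison uses, had a member mean of 8.39, above every compared array.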

How the results depend on the processing

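The differences of the called members, Igtp and Ifi35, kept their sign under every alternative read from the same probe sets. Another Ifi35 probe set gave -0.01 between genotypes in vehicle brain at 24 hr. Some medians close to 0 also changed sign. Under another setting 89.9% of the counts of members called stayed within 1.5 times the reported count, and 16 medians moved by 1 SD or more. With animals left out in turn these numbers were 94% and 0. Most of the reported counts were 0, and the comparisons with a call were less stable. Over both kinds of alternative, the count stayed so in 10 of 24 cases for MAM against vehicle in Mgmt-/- brain at 168 hr. For Mgmt-/- against wt in vehicle brain at 24 hr it stayed so in 9 of 24. Leaving out animals gave 0 to 2 members called for MAM against vehicle in Mgmt-/- brain at 168 hr, 0 to 1 for Mgmt-/- against wt in vehicle brain at 24 hr and 0 to 1 in MAM brain at 168 hr, and 0 elsewhere. Below, a comparison of genotypes is named by its brain and time, and the cause of these changes was not tested.

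Without the number-set term, with the ordinary linear model and with MGMT.MAM.168.343 kept, MAM against vehicle in Mgmt-/- brain at 168 hr had 0 members called. With that array kept the medians at 168 hr were 0.43 there, 0.26 for the interaction and 0.22 for the genotypes in MAM brain. Genotypes in vehicle brain at 24 hr had 0 called in the ordinary model, 0 with the RNA index and 2 with a number-set term per genotype or 1 fit of 16 groups. That fit called 1 in MAM brain at 168 hr, and dropping the fold threshold called 1 in MAM brain at 48 hr. Array weights called 1 in vehicle brain at 6 hr and 1 for wt vehicle at 168 against 6 hr, with medians of -0.0629 for MAM against vehicle in Mgmt-/- brain at 6 hr and of -0.0475 and -0.0591 for Mgmt-/- vehicle at 24 and 48 against 6 hr. The RNA index called 1 between genotypes in MAM brain at 6 hr, with medians of 0.14 at 6 hr and 0.16 at 48 hr. Counting any probe set of a gene called 1 between genotypes in MAM brain at 168 hr and 3 at 48 hr, where 1.52% and 9.33% of all probe sets were called. The shares of all probe sets called under the other settings of this paragraph are not given, so those counts cannot be set against a background.

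Without MGMT.VEH.6.903 and MGMT.VEH.6.905, an alternative chosen after seeing the data, 0 members were called at 6 hr or between times in Mgmt-/- vehicle brain, with medians of -0.044 and -0.0221 at 24 and 168 against 6 hr.

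Set 1 alone called 1 for MAM against vehicle in Mgmt-/- brain at 6 hr (1.2% of all probe sets) and 0 at 168 hr (0.0377%), and between genotypes 1 in vehicle (1.3%) and 1 in MAM brain (5.18%) at 6 hr and 0 in vehicle brain at 24 hr (1.56%). Its medians were -0.0929 for MAM against vehicle in Mgmt-/- brain at 6 hr, -0.19 between genotypes in MAM brain at 168 hr, and -0.0292 and -0.13 for Mgmt-/- vehicle at 24 and 168 against 6 hr. Set 2 alone called 7, 1 and 2 for MAM against vehicle in Mgmt-/- brain at 6, 48 and 168 hr (14.5%, 0.109% and 2.78% of all probe sets), 1 in wt brain at 48 hr (1.57%), 5 between genotypes in vehicle brain at 6 hr (31.2%), and 1, 2, 1 and 1 in MAM brain at 6, 24, 48 and 168 hr (10%, 17.5%, 10.9% and 3.47%). It called 1, 6 and 11 for Mgmt-/- vehicle at 24, 48 and 168 against 6 hr (3.27%, 13.1% and 24.4%) and 2 for wt vehicle at 168 against 6 hr (5.68%), with medians of 0.0657 for the interaction at 6 hr and 0.19 for Mgmt-/- vehicle at 168 against 6 hr. ISRE matches numbered 6 on the strand of the gene.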
